A study of Mus musculus with 6 samples.

Results

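The 8 genes described here encode the colony-stimulating factors (CSFs), the secreted growth factors of myeloid cells, and their receptors. They were chosen by name, with earlier results from the same cells known, out of the 18429 gene rows of a single-cell count matrix. The 3 ligand genes were Csf1, Csf2 and Csf3, and the 5 receptor genes were Csf1r, Csf2ra, Csf2rb, Csf2rb2 and Csf3r. All 8 were present in the matrix. Because they were chosen from the data, their values are given as a description and not as a test.

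Csf1 encodes M-CSF, which keeps macrophages alive and makes them grow through the receptor tyrosine kinase Csf1r. Csf2 encodes GM-CSF, which is bound by the alpha chain Csf2ra and signals through the beta chain Csf2rb, while Csf2rb2 is a mouse beta chain gene known for its part in the IL-3 receptor. Csf3 encodes G-CSF, which acts on the receptor Csf3r and is best known for driving neutrophil production. Macrophages that meet bacterial lipopolysaccharide (LPS) are a known source of all these ligands.

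The question asked of these cells was how the inducible response to LPS depends on cohesin, the ring-shaped chromatin complex of which Rad21 is a core subunit. Macrophages grown from mouse bone marrow, either wild-type or Rad21-/-, were left untreated or given 10 ng/ml of LPS for 2 or 8 h on day 7 of culture, which makes 6 samples with 1 sample per genotype and time. Single cells were sorted into wells, and transcripts were counted by MARS-seq as unique molecular identifiers (UMIs, which mark each captured RNA molecule). Rad21-/- cells came from mice with floxed Rad21 alleles and wild-type cells from mice without them, both on a mixed strain background. Both genotypes carried creERT2/creERT2 at Rosa26, a ubiquitously active locus, and all cells received 200 nM 4-hydroxytamoxifen at 96 h, so that the controls had active Cre as well. All cultures also held 20% L929-conditioned medium, the usual source of M-CSF protein for such cells. The labels do not say how many animals or cultures stand behind a sample. With 1 sample per group there is no replicate check on any difference below, no test was run, and each 95% interval covers counting error only.

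After 17 wells of more than 25000 UMIs were set aside, 1345 of 1362 cells remained, 672 wild-type and 673 Rad21-/-, with 181 to 267 cells and 1197415 to 1734640 UMIs per sample. The wells set aside held between 1.71% and 45.5% of a sample's UMIs, most in wild-type cells at 2 h. The median number of UMIs per cell lay between 5544 and 7043 and was highest in Rad21-/- cells at 8 h. Libraries were made in 24 pools that each covered 1 time point, and all but 1 of these mixed the genotypes. Rad21 itself was detected in 25.6%, 24.9% and 18.2% of wild-type cells (untreated, 2 h and 8 h) and in 2.62%, 5.43% and 5.41% of Rad21-/- cells, which is the direction the labels give. All 8 macrophage markers examined were detected in every sample. Their levels are given as CPM (counts scaled to the same total of UMIs in every sample). Together they held 9532, 10592 and 7805 CPM in wild-type cells (untreated, 2 h and 8 h) against 6124, 6721 and 6143 CPM in Rad21-/- cells. The measured markers of T cells, dendritic cells, fibroblasts and mast cells together stayed at or below 32.6 CPM per cell type and sample. B cell markers reached 28.3 to 62.3 CPM in wild-type and 174 to 187 CPM in Rad21-/- samples with 3 of 6 markers measured, and Ighm made up most of the latter. Their part in the genotype differences was not tested.

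The ligand genes were low in untreated cells and were higher after LPS, each with its own timing, while the receptor genes were already present and differed from untreated cells in both directions. Csf1 and Csf2 were highest at 2 h in wild-type cells, and Csf3 was highest at 8 h. At 8 h the receptor genes Csf2rb and Csf3r were higher and Csf1r was lower than in untreated wild-type cells. In Rad21-/- cells, Csf1 and Csf2 at 2 h, Csf3 at 8 h and Csf2rb2 at each time were lower than in wild-type cells, and Csf1r was higher at all 3 times.

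A gene is called here when its CPM, taken from UMIs summed over the cells of a sample, differed at least 2-fold between samples that together held at least 50 of its UMIs. In wild-type cells at 2 h against untreated, Csf1 and Csf2 were called higher out of 6 CSF genes with enough UMIs and none lower, while 3.33% of all 8237 genes tested were called higher and 3.08% lower. At 8 h against untreated, Csf3, Csf2rb and Csf3r were called higher and Csf1r lower out of 7, against 7.54% and 15.4% of all 8527 genes. From 2 to 8 h, all 8 genes could be examined, and Csf3, Csf2rb and Csf3r were called higher and Csf1, Csf2 and Csf1r lower, against 7.3% and 9.81% of all genes, and the call of Csf2rb was lost with all wells. Since the 8 genes were chosen with such results known, the high share of calls among them is no evidence about the family. The scale matters for the 8 h sample. The median log2 ratio of all genes at 8 h against untreated was -0.24 in wild-type cells, and size factors from the median of ratios moved all values of that comparison up by 0.31, which takes Csf1r to -0.96 and so just inside the 2-fold limit. In the comparison of the genotypes at 8 h the median was 0.20 and size factors moved all values by -0.22, which takes Csf2rb from -0.88 to -1.10 and so past the limit.

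In Rad21-/- cells at 2 h, no CSF gene was called of the 3 with enough UMIs, where 3.39% of all genes were called higher and 1.93% lower. At 8 h against untreated, Csf1, Csf2rb and Csf3r were called higher out of 5, against 6.61% of all genes, and none lower, against 5.85%. From 2 to 8 h, Csf2rb and Csf3r were called higher, against 5.47%, and none lower, against 4.56%. Between the genotypes, no CSF gene of 3 was called in untreated cells, where 1.34% of all genes were called higher in Rad21-/- cells and 3.98% lower. At 2 h, Csf1 and Csf2 were called lower in Rad21-/- cells out of 5, against 4.62% of all genes, and none higher, against 2.75%. At 8 h, Csf3 was called lower out of 6, against 4.91%, and Csf1r higher, against 7.64%. Csf2rb at 8 h, with a 1.85-fold lower CPM in Rad21-/- cells, lay just inside the limit.

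**Figure D1:**
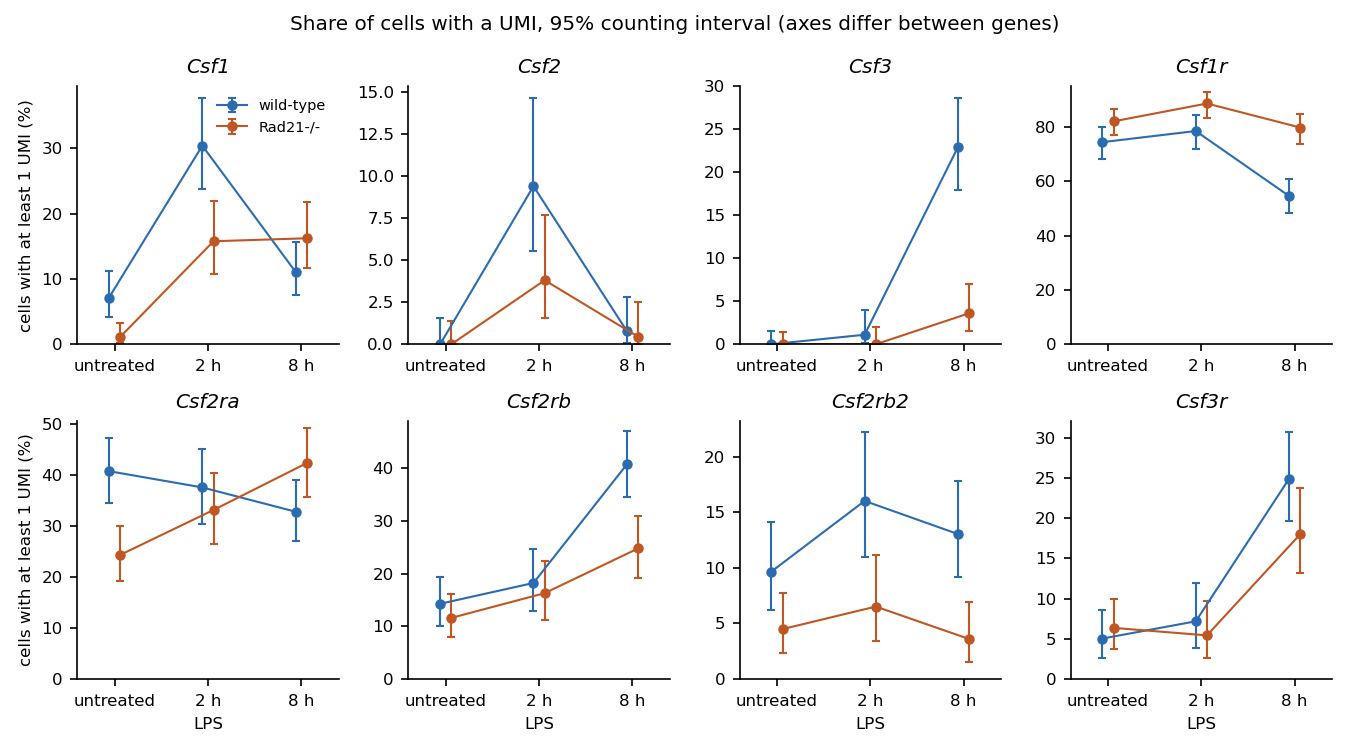
Share of cells with at least 1 UMI of each gene (y axis, percent) in untreated cells and after 2 and 8 h of LPS (x axis), for wild-type (blue) and Rad21-/- cells (orange), with bars for the 95% Clopper-Pearson interval and a separate y axis for each gene. Csf1 and Csf2 peaked at 2 h in wild-type cells, Csf3, Csf2rb and Csf3r were highest at 8 h in both genotypes, and the Csf1r shares of Rad21-/- cells lay above those of wild-type cells.

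Csf1 lies on chromosome 3 at 107741048-107760469 (GRCm38.p6). Wild-type cells held 31 UMIs untreated, 92 at 2 h and 31 at 8 h, or 21.4, 76.8 and 19.9 CPM, and Rad21-/- cells held 3, 40 and 51, or 1.82, 32.0 and 29.4 CPM. The wild-type samples thus rank highest at 2 h and are alike before and after it, while the Rad21-/- samples start from almost nothing and stay at one level from 2 to 8 h. Csf1 was detected in 7.14%, 30.4% and 11.1% of wild-type cells and in 1.12%, 15.8% and 16.2% of Rad21-/- cells.

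The log2 ratio of Csf1 at 2 h to untreated was 1.84 in wild-type cells (95% interval 1.24 to 2.48). In Rad21-/- cells it was 4.14 (2.49 to 6.47), a 17.6-fold difference that rests on 3 UMIs in untreated cells. From 2 to 8 h it was -1.95 in wild-type cells (-2.58 to -1.35), against -0.12 in Rad21-/- cells (-0.75 to 0.51), so the intervals of the genotypes did not overlap, though the difference between them was not tested. Untreated Rad21-/- cells had 11.8-fold less Csf1 than wild-type cells, with a log2 ratio of -3.56 (-5.91 to -1.88) from 34 UMIs in all, which is under the minimum for a call and ranged from -4.14 to -3.21 over pools left out. At 2 h the log2 ratio of Rad21-/- to wild-type cells was -1.26 (-1.84 to -0.71), and at 8 h it was 0.56 (-0.11 to 1.25), an interval that holds no difference. The wells set aside held 211 further Csf1 UMIs in wild-type cells at 2 h, and with all wells the log2 ratio at 2 h to untreated was 2.71 there and that of Rad21-/- to wild-type cells was -2.19.

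Csf1 was lower in Rad21-/- cells within all 4 of the 2 h pools with 10 or more cells per genotype. The share of cells with Csf1 ranged from 22.0% to 45.7% over these pools in wild-type cells and from 8.89% to 24.4% in Rad21-/- cells, so the ranges overlapped although every pool had the same direction. Among untreated wild-type cells, 10 of the 17 with Csf1 were in 1 pool, and without that pool the genotype difference in share was -2.76 percentage points, where it was -6.02 with it. In untreated cells, Csf1 was lower in Rad21-/- cells in 6 of 8 pools, and at 8 h its share was higher there in 5 of 6 pools. When every cell was thinned to 3800 UMIs, which leaves out 21 to 47 shallower cells per sample, the share at 2 h was 21.9% in wild-type cells against 10.5% in Rad21-/- cells.

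Csf2 lies on chromosome 11 at 54247270-54249899 (GRCm38.p6). No UMI was found in 238 untreated wild-type cells or 267 untreated Rad21-/- cells, which allows shares of up to 1.26% and 1.12% (3 cells of the total), while the exact interval reaches 1.54% and 1.37%. At 2 h, wild-type cells held 50 UMIs in 17 cells (9.39%, interval 5.57% to 14.6%) and Rad21-/- cells 11 UMIs in 7 cells (3.80%, 1.54% to 7.68%). At 8 h, 2 UMIs were left in each genotype. Csf2 was therefore seen almost entirely at 2 h, in both genotypes.

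The CPM of Csf2 in wild-type cells at 2 h was at least 20.1-fold higher than in untreated cells, taking 3 UMIs per sample as the limit that a count of 0 allows. The Csf2 log2 ratio of Rad21-/- to wild-type cells at 2 h was -2.24 (-3.34 to -1.28). Leaving out 1 pool took it to -3.42, and leaving out another took it to -1.49. A single wild-type cell held 16 of the 50 UMIs, and a single Rad21-/- cell held 5 of the 11. Without those cells the Csf2 level was 28.5 CPM in wild-type cells against 4.84 CPM in Rad21-/- cells, where it had been 41.8 and 8.81 CPM. Since molecules of Csf2 cluster in few cells, the intervals from summed UMIs are too narrow, and the difference in share is the safer measure. It was -5.59 percentage points, with an interval of -11.1 to -0.43, and at 3800 UMIs per cell it was -4.28 (-9.32 to 0.35), an interval that holds no difference. In all 4 pools with enough cells, the share was lower in Rad21-/- cells. The wells set aside held 52 further Csf2 UMIs in wild-type and 2 in Rad21-/- cells at 2 h.

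The promoters of Csf1 and Csf2 are shown because these were the ligands highest at 2 h in wild-type cells, and that of Csf2rb2 because its level was low in Rad21-/- cells at each time. Each is the 250 bases before the start of the gene (RefSeq, GRCm38.p6, minus strand, 5′ to 3′), at chr3:107760470-107760719 for Csf1, chr11:54249900-54250149 for Csf2 and chr15:78305722-78305971 for Csf2rb2. Capitals mark GGG and CC with any 5 bases between them on either strand, a loose form of the sequence bound by NF-kappaB, the LPS-activated transcription factor.
Csf1: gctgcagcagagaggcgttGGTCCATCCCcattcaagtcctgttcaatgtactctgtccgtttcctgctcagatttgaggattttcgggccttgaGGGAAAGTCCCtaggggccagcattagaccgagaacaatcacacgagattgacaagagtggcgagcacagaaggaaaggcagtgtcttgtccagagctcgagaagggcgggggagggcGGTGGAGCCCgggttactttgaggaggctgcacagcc
Csf2: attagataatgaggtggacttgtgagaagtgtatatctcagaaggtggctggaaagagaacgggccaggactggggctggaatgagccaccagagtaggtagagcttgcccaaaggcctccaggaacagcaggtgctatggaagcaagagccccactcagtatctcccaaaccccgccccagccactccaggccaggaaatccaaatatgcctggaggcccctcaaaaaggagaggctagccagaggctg
Csf2rb2: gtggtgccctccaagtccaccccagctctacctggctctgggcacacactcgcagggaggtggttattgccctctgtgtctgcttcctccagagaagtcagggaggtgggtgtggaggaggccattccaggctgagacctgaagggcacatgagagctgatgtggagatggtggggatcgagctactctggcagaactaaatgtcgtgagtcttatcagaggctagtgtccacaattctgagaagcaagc
These letters occurred 4 times in the Csf1 window, at -231 to -222, at -155 to -146 overlapping with -154 to -145 on the other strand, and at -37 to -28 from the start of the gene. They were not in the Csf2 or Csf2rb2 windows. The windows of Csf2ra and Csf3r, not shown, held 2 and 1 matches. These letters occurred in 45.8% of all 32851 promoters of the table, so that a match is common. No sequence outside the 250 bases was read, so absence from a window says nothing about sites elsewhere at the gene. The AP-1 letters TGANTCA (6.75% of promoters), the interferon response letters GAAA, any 2 bases and GAAA again (2.98%) and the TATA letters TATAAA (12.4%) were in none of the 3 windows. The PU.1 letters GAGGAA (23.3%) occurred in the Csf2rb2 window at -167 to -162, on the strand opposite to the one printed. In the windows of Csf2ra and Csf3r they occurred 2 times and 1 time.

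Csf3 lies on chromosome 11 at 98700183-98703631 (GRCm38.p6). It was not found in untreated cells of either genotype or in 184 Rad21-/- cells at 2 h. That allows shares of up to 1.26%, 1.12% and 1.63% (3 cells of the total), while the exact interval reaches 1.54%, 1.37% and 1.98%. At 2 h, 2 wild-type cells held 1 UMI each. At 8 h, 58 of 253 wild-type cells held Csf3 (22.9%, interval 17.9% to 28.6%) and 8 of 222 Rad21-/- cells did (3.604%, 1.57% to 6.98%). Csf3 was thus seen mostly at 8 h, when Csf2 was down to 2 UMIs in each genotype, and mostly in wild-type cells.

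The level of Csf3 at 8 h was 84.2 CPM in wild-type cells against 4.61 CPM in Rad21-/- cells, a log2 ratio of -4.19 (-5.43 to -3.17) or 18.3-fold less. Against untreated cells it was at least 40.6-fold higher in wild-type and at least 2.53-fold higher in Rad21-/- cells. The wild-type UMIs were spread over many cells. Of the 58 positive wild-type cells, 30 held 1 UMI and the others up to 8, with a mean of 2.26, while each of the 8 positive Rad21-/- cells held a single UMI. The share was lower in Rad21-/- cells in all 6 pools with enough cells, from 17.1% to 44.2% in wild-type and from 0% to 7.69% in Rad21-/- cells, and these ranges did not overlap. At 3800 UMIs per cell the shares were 16.96% and 2.49%, a difference of -14.5 percentage points (-20.1 to -9.08).

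**Figure D2:**
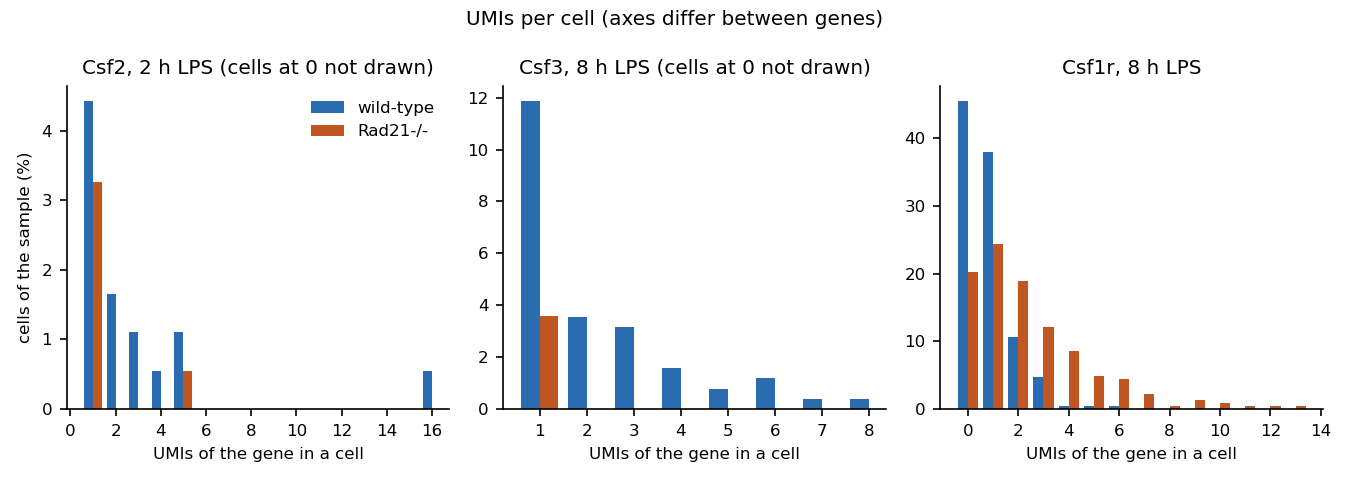
Percent of the cells of a sample (y axis) by the number of UMIs of the gene in the cell (x axis), for Csf2 at 2 h, Csf3 at 8 h and Csf1r at 8 h of LPS, in wild-type (blue) and Rad21-/- cells (orange); cells at 0 are left out for Csf2 and Csf3. A single wild-type cell with 16 UMIs stands apart for Csf2, no Rad21-/- cell exceeded 1 UMI for Csf3, and the Csf1r counts of Rad21-/- cells extended to 13 against 6 in wild-type cells.

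Cells with any ligand UMI made up 7.14% of untreated wild-type cells, 34.8% of those at 2 h (27.9% to 42.2%) and 31.2% of those at 8 h (25.6% to 37.3%). The shares of Rad21-/- cells were 1.12%, 17.4% (12.2% to 23.7%) and 20.3% (15.2% to 26.2%). The share of ligand-positive cells was thus at about one level from 2 to 8 h in each genotype, although the gene behind it passed from Csf1 and Csf2 to Csf3 and Csf1 in wild-type cells. UMIs of at least 2 ligand genes were found in 11 wild-type cells at 2 h and 9 at 8 h, and in 4 and 0 Rad21-/- cells. In wild-type cells at 2 h, 9 cells held both Csf1 and Csf2 where the product of the shares gives 5.17, and at 3800 UMIs per cell 5 cells did against 2.19. At 8 h, 8 cells held both Csf1 and Csf3 against 6.42. Such small counts are given as a description.

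Csf1r, the M-CSF receptor, lies on chromosome 18. It held 449, 368 and 201 UMIs in wild-type cells (untreated, 2 h and 8 h), or 311, 307 and 129.2 CPM, and 722, 636 and 536 UMIs in Rad21-/- cells, or 438, 509 and 309 CPM. Levels of Csf1r lay together in 3 samples, the untreated and 2 h wild-type and the 8 h Rad21-/- sample, with the untreated and 2 h Rad21-/- samples above them and the 8 h wild-type sample far below. Csf1r was detected in 74.4%, 78.5% and 54.5% of wild-type cells and in 82.02%, 88.6% and 79.7% of Rad21-/- cells.

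The log2 ratio of Csf1r at 8 h to untreated was -1.27 in wild-type cells (-1.51 to -1.02), against -0.50 in Rad21-/- cells (-0.67 to -0.34), beside medians over all genes of -0.24 and -0.02. At 2 h it was -0.02 (-0.22 to 0.19) in wild-type and 0.22 (0.06 to 0.37) in Rad21-/- cells. Rad21-/- cells had more Csf1r than wild-type cells at each time, 1.41-fold untreated, 1.66-fold at 2 h and 2.39-fold at 8 h, and none of the 3 counting intervals held equality. At 8 h the median over all genes was itself 0.20 above 0 on the log2 scale, where Csf1r stood at 1.26. Positive cells also held more molecules. The mean number of Csf1r UMIs per positive cell was 2.54, 2.59 and 1.46 in wild-type cells against 3.30, 3.90 and 3.03 in Rad21-/- cells, and cells with at least 2 UMIs made up 16.6% of wild-type and 55.4% of Rad21-/- cells at 8 h.

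Rad21-/- cells at 8 h were also deeper, so the Csf1r shares were compared at 3800 UMIs per cell. They were 42.4% in wild-type cells against 64.2% in Rad21-/- cells, a difference of 21.8 percentage points (12.3 to 30.7), beside 25.2 points at full depth. In untreated cells the difference at this depth was 8.01 points (-1.04 to 16.98), and at 2 h it was 14.0 (4.29 to 23.4). In each of the 6 pools at 8 h the share was higher in Rad21-/- cells, from 48.8% to 65.9% in wild-type and from 69.6% to 93.2% in Rad21-/- cells, without overlap. At 2 h it was higher in all 4 pools, with overlapping ranges, and in untreated cells in 6 of 8.

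**Figure D3:**
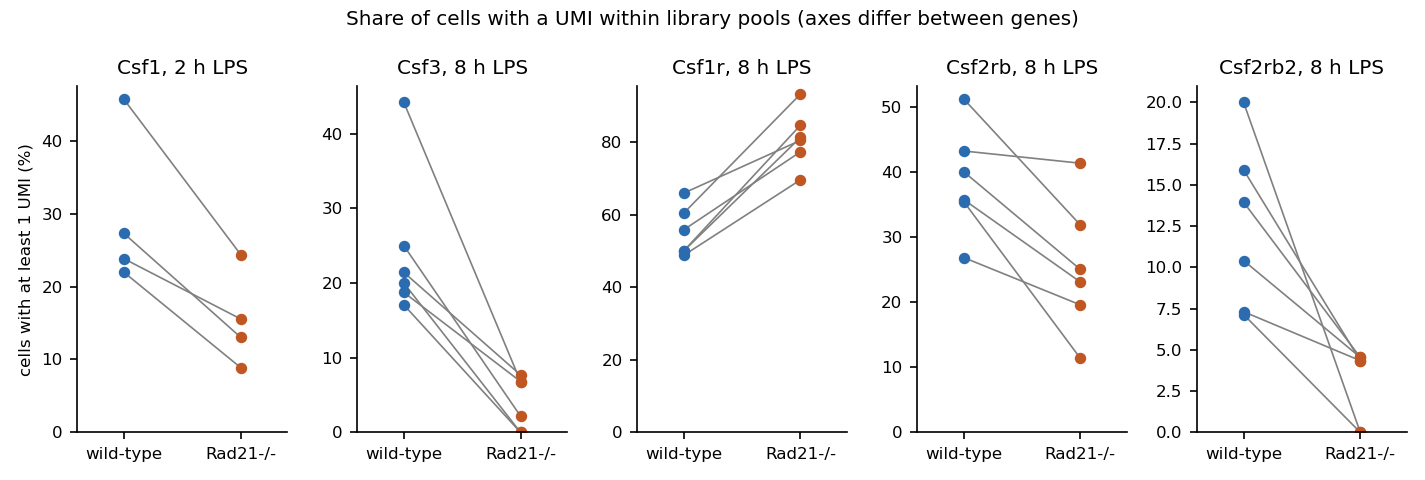
Share of cells with at least 1 UMI (y axis, percent) in wild-type and Rad21-/- cells of the same library pool, joined by a line, for pools with 10 or more cells per genotype; pools are shared libraries, not replicate cultures, and each gene has its own y axis. All 4 lines slope down to Rad21-/- for Csf1 at 2 h, all 6 do so for Csf3, Csf2rb and Csf2rb2 at 8 h, and all 6 slope up for Csf1r at 8 h.

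Csf2ra, the ligand-binding chain of the GM-CSF receptor, lies on chromosome 19 at 61217191-61228461 (GRCm38.p6). It held 127, 92 and 102 UMIs in wild-type cells, or 87.9, 76.8 and 65.6 CPM, and 90, 84 and 140 UMIs in Rad21-/- cells, or 54.6, 67.3 and 80.7 CPM. By CPM, neighbouring times lay inside each other's counting error in both genotypes. The share in Rad21-/- cells was 8.81 percentage points higher at 2 h than untreated (0.38 to 17.3). The log2 ratio at 8 h to untreated was -0.42 (-0.81 to -0.04) in wild-type and 0.56 (0.17 to 0.96) in Rad21-/- cells, and with size factors it was -0.12 and 0.60. With all wells the wild-type ratio of 2 h to untreated was 0.32, where it was -0.19 without them. Untreated Rad21-/- cells held less Csf2ra than wild-type cells, with shares of 24.3% and 40.8% and a difference of -16.4 percentage points (-24.3 to -8.25), while at 8 h the shares were 42.3% and 32.8%. At 3800 UMIs per cell the difference at 8 h was 1.32 points (-6.89 to 9.60), and that in untreated cells was -18.1 (-26.2 to -9.77).

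Csf2rb, the signalling chain shared by the receptors for GM-CSF, IL-3 and IL-5, lies on chromosome 15 at 78325800-78351001, beside Csf2rb2 at 78282507-78305721 (GRCm38.p6). Csf2rb held 43, 38 and 149 UMIs in wild-type cells, or 29.8, 31.7 and 95.8 CPM, and 34, 30 and 90 UMIs in Rad21-/- cells, or 20.6, 24.0 and 51.9 CPM. The 8 h sample was the highest in both genotypes, and the untreated and 2 h samples did not differ beyond counting error. The log2 ratio at 8 h to untreated was 1.69 (1.19 to 2.21) in wild-type and 1.33 (0.75 to 1.94) in Rad21-/- cells. Csf2rb was detected in 14.3%, 18.2% and 40.7% of wild-type cells and in 11.6%, 16.3% and 24.8% of Rad21-/- cells.

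At 8 h the log2 ratio of Csf2rb in Rad21-/- to wild-type cells was -0.88 (-1.28 to -0.50), against a median of 0.20 over all genes. The difference in share was -15.9 percentage points (-24.0 to -7.49), and -12.6 (-20.3 to -4.61) at 3800 UMIs per cell. The share was lower in Rad21-/- cells in all 6 pools, from 26.8% to 51.2% in wild-type and 11.4% to 41.3% in Rad21-/- cells. A single Rad21-/- cell held 15 of the 90 UMIs, and without it the Csf2rb level was 43.7 CPM. In untreated and 2 h cells the intervals of the genotype ratio held equality. The 2 h values of Csf2rb depend on the wells set aside, which held 99 further UMIs in wild-type cells, and with all wells the log2 ratio of 2 h to untreated wild-type cells was 1.09 and that of Rad21-/- to wild-type cells at 2 h was -1.18. The ratio of 8 h to 2 h in wild-type cells was 1.59 (1.07 to 2.15), and with all wells it was 0.75 and no longer past 2-fold.

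Csf2rb2 held 28, 32 and 38 UMIs in wild-type cells, or 19.4, 26.7 and 24.4 CPM, and 14, 14 and 8 UMIs in Rad21-/- cells, or 8.50, 11.2 and 4.61 CPM. Unlike Csf2rb, it differed between the times by less than counting error in each genotype. All 3 wild-type samples lay above all 3 Rad21-/- samples. The log2 ratio of Rad21-/- to wild-type cells was -1.19 (-2.23 to -0.22) untreated, -1.25 (-2.27 to -0.31) at 2 h and -2.40 (-3.72 to -1.28) at 8 h, or 2.28, 2.38 and 5.30-fold less. None of these counts as called, since the samples of each comparison held fewer than 50 UMIs together. At 8 h the share was 13.0% in wild-type cells against 3.604% in Rad21-/- cells, lower in all 6 pools, with ranges of 7.14% to 20.0% and 0% to 4.55%. At 3800 UMIs per cell the difference in share was -6.94 percentage points at 8 h (-11.6 to -2.63), while the intervals for untreated cells (-6.50 to 1.96) and for 2 h (-10.3 to 0.18) held 0. The wells set aside held 17 further Csf2rb2 UMIs in Rad21-/- cells at 8 h, more than the 8 in all other cells. With all wells the log2 ratio was -1.07 at 8 h and -1.55 at 2 h. The samples of each of these comparisons then held enough UMIs for a call.

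Csf2rb and Csf2rb2 are near-identical over part of their length, and reads that fit both genes could be split or lost in counting. Of the stretches of 50 bases in a Csf2rb transcript of an older annotation, 18.7% were also in a Csf2rb2 transcript, but none within the last 1000 bases, the part that a method reading 3′ ends such as MARS-seq mostly covers.

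Csf3r, the G-CSF receptor, lies on chromosome 4 at 126023441-126044975 (GRCm38.p6). It held 12, 15 and 79 UMIs in wild-type cells, or 8.30, 12.5 and 50.8 CPM, and 18, 11 and 52 UMIs in Rad21-/- cells, or 10.9, 8.81 and 29.98 CPM. Both 8 h samples stood above the other 4, which did not differ beyond counting error within a genotype or a time. The log2 ratio at 8 h to untreated was 2.61 (1.73 to 3.62) in wild-type and 1.46 (0.66 to 2.32) in Rad21-/- cells, and Csf3r was then found in 24.9% and 18.02% of cells.

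Between the genotypes at 8 h, the Csf3r log2 ratio was -0.76 (-1.29 to -0.24). With all wells this ratio was -1.06 and so past 2-fold, and with size factors it was -0.98, just inside the limit. The difference in share at 8 h was -6.88 percentage points, with an interval of -14.1 to 0.56. Csf3r is best known from neutrophils. The measured neutrophil markers S100a8 and Camp together reached 10.3 CPM in wild-type cells against 13.3 CPM in Rad21-/- cells at 8 h. In the other samples they were at or below 0.80 CPM. The 2 markers differed in opposite directions between the genotypes. At 8 h S100a8 was found in 10 wild-type and 4 Rad21-/- cells, and Camp in 3 and 16. The other 6 of 8 markers of that list were not in the matrix. Of the 13 wild-type and 19 Rad21-/- cells with such a UMI at 8 h, 2 and 1 held Csf3r. Without them the log2 ratio of Csf3r at 8 h to untreated was 2.66 in wild-type cells against 1.58 in Rad21-/- cells, where it was 2.61 and 1.46 with them.

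**Figure D4:**
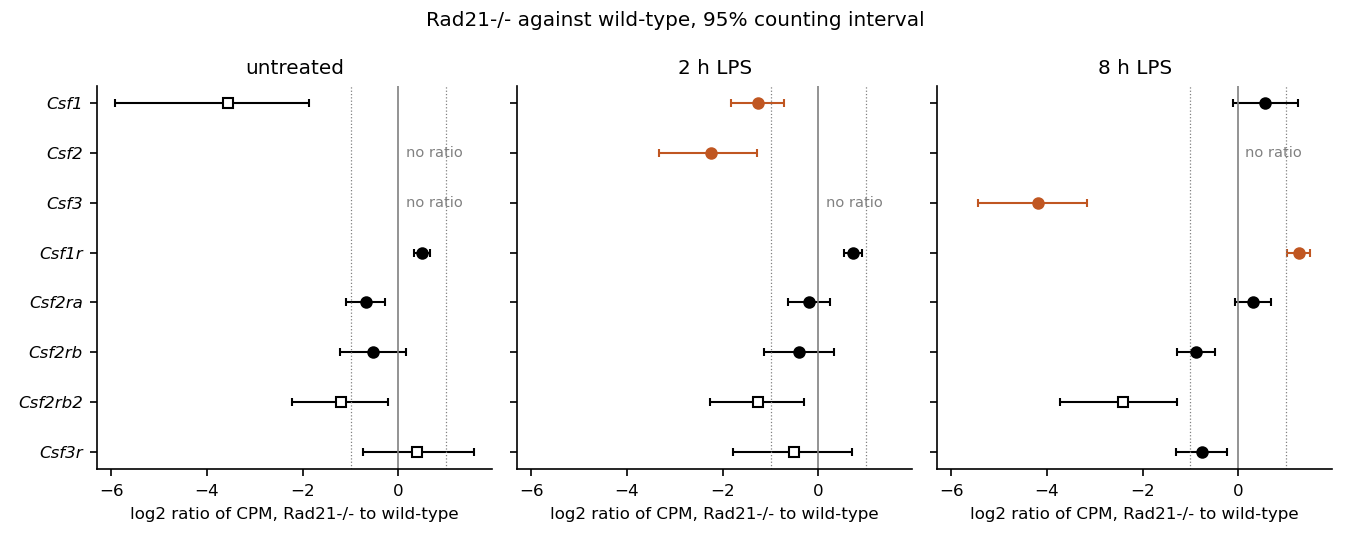
Log2 ratio of CPM in Rad21-/- to wild-type cells (x axis) for each gene (rows) in untreated cells and at 2 and 8 h of LPS, with bars for the 95% counting interval; filled circles have at least 50 UMIs in the compared samples, open squares fewer, orange marks a call, dotted lines mark a 2-fold difference, and no ratio is drawn where neither sample held more than 3 UMIs. Csf1r lies to the right of 0 at all 3 times and Csf2rb2 to the left, Csf1 moves from -3.56 through -1.26 to 0.56, and Csf3 stands at -4.19 at 8 h.

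A UMI of at least 1 receptor gene was found in 85.4% to 87.3% of wild-type and 89.5% to 91.9% of Rad21-/- cells, so receptor-bearing cells were about as common at every time. Cells with both Csf2ra and Csf2rb, the chains of the GM-CSF receptor, made up 6.72%, 10.5% and 14.2% of wild-type and 3.75%, 5.98% and 10.8% of Rad21-/- cells. These shares depend on depth. At 3800 UMIs per cell, 6 of 191, 5 of 160 and 14 of 224 wild-type cells held both. In Rad21-/- cells 4 of 220, 6 of 152 and 8 of 201 did, so the share at 2 h was then not lower than in wild-type cells. In wild-type cells at 8 h, 36 cells held Csf2ra and Csf2rb where the product of the shares gives 33.8, and 20 held Csf3 and Csf3r against 14.4. At 3800 UMIs per cell the latter count was 6 against 5.94, so at equal depth Csf3 and Csf3r were found together about as often as the product of their shares gives. Csf3 and Csf1r shared 29 cells against 31.6.

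Across the 6 samples, the genes whose log2 CPM followed a CSF gene most closely were read from 10610 genes with at least 100 UMIs. With only 6 points, which share their libraries, these coefficients are a description. Csf1r was closest to Arhgap1 (Pearson's r = 0.998), Cd68 (0.994) and Gusb (0.994). Csf2rb was closest to Usp18 (0.994), Sp110 (0.993) and Tor1aip2 (0.993), and Csf3r to Upp1 (0.990), Hsf5 (0.988) and Mmp14 (0.988). Csf1 was closest to Ampd3 (0.991), Vps37c (0.987) and Crnkl1 (0.982), and Csf3 to 1110038F14Rik (0.995), Vcpip1 (0.992) and Trip12 (0.990). Csf3 had no UMI in untreated cells of either genotype or in Rad21-/- cells at 2 h. Its values there were set to 3 UMIs, so its coefficients rest mainly on the 8 h wild-type sample. The size of the differences was not alike, since 1110038F14Rik held 26.3 CPM in untreated and 42.4 CPM in 8 h wild-type cells. Csf2ra was closest to Gsk3a (0.974), Nme6 (0.970) and Snrpd1 (0.967), and Csf2rb2 to Cenpp (0.994), Setdb2 (0.986) and Itpkb (0.982).

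The CSF receptors other than Csf1r lack a kinase and signal through JAK and STAT proteins, with SOCS proteins, Cish and the Pim kinases among their targets. Of 13 such genes, 11 could be examined in wild-type cells at 8 h against untreated, where 6 were called higher and none lower, against 7.54% and 15.4% of all genes, with a median log2 ratio of 1.03 beside -0.24. Among these were Jak2 (3.52), Stat3 (1.66), Socs1 (2.99), Socs3 (6.87) and Pim1 (2.81). In Rad21-/- cells, 4 of 10 were called higher and none lower, against 6.61% and 5.85% of all genes, among them Jak2 (2.46), Socs3 (7.92, from 1 UMI in untreated cells, interval 5.43 to 13.2) and Pim1 (2.30), with a median of 0.71 beside -0.02. Between the genotypes at 8 h, Jak2 (-1.40), Socs1 (-1.82), Socs3 (-1.14) and Pim1 (-1.78) were called lower in Rad21-/- cells out of 10, and none higher, against 4.91% and 7.64% of all genes. In untreated cells Pim1 (-1.27) was called lower in Rad21-/- cells. At 2 h against untreated, Jak2, Socs3 and Pim1 were called higher in both genotypes, Stat5a in Rad21-/- cells as well, and Stat5b was called lower in wild-type cells.

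Of 20 genes of receptor-proximal signalling, 18 could be examined in wild-type cells at 8 h against untreated, where 4 were called higher and 3 lower, against 7.54% and 15.4% of all genes. The share lower was near that background. Syk (1.08), Lyn (1.58) and Src (4.12, from 3 UMIs in untreated cells, interval 2.49 to 6.44) were among those higher. Cblb (-1.26), Inpp5d (-1.97) and Dok2 (-3.26) were lower, while Cbl (-0.26), Ptpn6 (-0.13) and Dok1 (-0.21) were not called. Since size factors moved all values of this comparison up by 0.31, Cblb then lies inside the limit. In Rad21-/- cells 3 of 17 were called higher, among them Syk (1.51) and Lyn (1.53), and Inpp5d (-1.87) was called lower, against 6.61% and 5.85% of all genes. Between the genotypes at 8 h, Dok2 (2.81) and Tyrobp (1.03) were called higher in Rad21-/- cells and Dok1 (-1.66), Pik3cd (-1.03) and Src (-2.26) lower. Cblb was called lower in Rad21-/- cells untreated (-1.21) and at 2 h (-1.87), and Dok1 untreated (-1.11). No gene of this list was called at 2 h against untreated. The medians of this list lay between -0.18 and 0.25 over all 9 comparisons.

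Of 10 transcription factors known from the Csf1r locus or the macrophage lineage, Cebpb and Ets2 stood out in both genotypes. Cebpb held 153.6, 619 and 971 CPM in wild-type cells against 57.05, 288 and 310 CPM in Rad21-/- cells, and Ets2 held 49.8, 227 and 120 CPM against 16.4, 78.5 and 46.1. Both were called higher at 2 and 8 h in each genotype and lower in Rad21-/- cells at all 3 times, while Spi1, which encodes PU.1, held 547 CPM in wild-type cells against 524 CPM in Rad21-/- cells at 8 h. Maf was called lower at 2 h in wild-type (-1.11) and at 8 h in Rad21-/- cells (-1.25), Fli1 lower at 8 h in wild-type cells (-1.13), and Spi1 higher at 8 h in Rad21-/- cells (1.05). Irf8 was called in no comparison between the genotypes, and its 8 h log2 ratio of Rad21-/- to wild-type cells was -0.85.

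Among 9 genes of receptor shedding and mRNA decay, Rhbdf2, Zfp36 and Zc3h12a were called higher at 2 and 8 h in both genotypes. Zfp36, whose product speeds the decay of Csf2 mRNA and other AU-rich transcripts, held 37.4, 490 and 348 CPM in wild-type cells against 21.8, 298 and 81.3 CPM in Rad21-/- cells, and was called lower in Rad21-/- cells at 8 h (-2.10). That was the only call between the genotypes at 8 h out of 8 genes, against 4.91% of all genes lower. Within Rad21-/- cells, Zfp36l1 was called lower at 8 h against untreated (-1.29), 1 of 9 genes, against 5.85%. Adam17, the protease known to cleave M-CSF and Csf1r from the cell surface, held 79.6, 129.4 and 95.8 CPM in wild-type cells against 112.9, 155 and 182 CPM in Rad21-/- cells, with no call. Of 13 related growth factors and receptors, the 4 with enough UMIs (Il3ra, Kit, Flt3l and Epo) were called in none of the 9 comparisons. Il34, the other ligand of Csf1r, held 7 to 11 UMIs in every sample.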

How the data were processed

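MARS-seq measured RNA of single bone marrow-derived macrophages in 6 samples. The authors demultiplexed reads by pool and cell barcode, mapped them with GEMTools 1.7.0 to GRCm38.p4 with Gencode M8, left out wells whose spike-in share exceeded 15% or whose mapped share was below 60%, and did not normalize the UMI counts they deposited. Genes in less than 5% of cells were to be removed per the methods, yet 5709 rows lie below that.

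Every cell was assigned to its sample by its name. The 8 genes, the gene lists, the limit of 25000 UMIs per well and the thinning depth of 3800 UMIs were chosen with earlier results of these data known. Shares carry exact Clopper-Pearson intervals, UMI sums exact Poisson intervals, log2 ratios of CPM exact conditional intervals and differences in share Newcombe intervals, all at 95% and for counting error only. A count of 0 was set to 3 UMIs per sample. Cells were thinned without replacement, and no doublet caller was run. Genes named besides the 8 were Rad21, list members past 2-fold or noted with their values, and for each CSF gene with at least 100 UMIs the 3 genes closest in log2 CPM over the samples. Irf8, Adam17, Il34, the related factors without a call and the marker genes were named after their values were seen. Some list members are not reported here. The alternatives were all wells, each pool left out, 3800 or 5500 UMIs per cell, at least 2 UMIs per positive cell, pools weighted equally, a mean over cells, size factors and other UMI minimums. Leaving out cells with S100a8 or Camp was added after the data were seen. Python 3.11.15, numpy 2.4.6, pandas 2.3.3, scipy 1.17.1 and matplotlib 3.10.9 were used, and the steps were tested on simulated data. Promoters came from a RefSeq table of GRCm38.p6, which held no entry for Csf3 or Csf2rb. That of Csf1r was left out, so 5 of the 8 genes were read.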

Additional observations from a re-analysis of the deposited data

Results flagged for a closer look

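Csf2ra had ratios of opposite sign in the genotypes. Its log2 ratio of CPM at 8 h to untreated was -0.42 in wild-type and 0.56 in Rad21-/- cells, each with a counting interval on its own side of 0. With 1 sample per group the difference between them was not tested. With size factors it was -0.12 in wild-type and 0.60 in Rad21-/- cells, so the wild-type value depends on the scaling, and the median of all genes there was -0.24 without them. Leaving out each library pool in turn kept the ratio between -0.52 and -0.35 in wild-type and between 0.40 and 0.70 in Rad21-/- cells.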

How the results depend on the processing

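No called value reversed under the alternatives run. Of the counts of genes past 2-fold, the following moved by over 1.5 times. With at least 100 UMIs, the count higher became 1 where it was 2 for wild-type 2 h against untreated, 1 where it was 3 for Rad21-/- 8 h against untreated, and 1 where it was 2 for Rad21-/- 8 h against 2 h, and the count lower in Rad21-/- cells at 2 h became 1 where it was 2. With at least 1 UMI, it became 2 where it was 0 for the genes higher in Rad21-/- cells at 2 h against untreated, for those lower from 2 to 8 h and for those lower in untreated Rad21-/- than wild-type cells, the last being 1 at 3800 UMIs per cell. The count lower in Rad21-/- cells at 8 h became 2 where it was 1 with all wells, at 5500 UMIs, with size factors and with at least 1 UMI, and it ranged from 1 to 2 over pools left out, with 2 only without 1 pool. The gene added was not the same in each setting. It was Csf3r with all wells (-1.06, with Csf2rb at -0.78), Csf2rb with size factors (-1.10) and Csf2rb2 with at least 1 UMI (-2.40). With size factors the count lower in wild-type cells at 8 h became 0, since Csf1r then missed the limit. The count higher in Rad21-/- cells from 2 to 8 h became 1 with a mean over cells and ranged from 1 to 2 over pools left out, with 1 without either of 2 pools. With all wells, the count higher in wild-type cells became 3 at 2 h against untreated and 2 at 8 h against 2 h. The count lower in Rad21-/- cells at 2 h then became 3, and each of these changes was by Csf2rb. Genes short of UMIs without the wells set aside stayed out of these counts. Among them, Csf2rb2 then held 86 wild-type and 19 Rad21-/- UMIs at 2 h, with a log2 ratio of -1.55. At 8 h it held 46 and 25, at -1.07. Csf3r held 38 UMIs in wild-type cells at 2 h and 12 untreated, at 1.08. With the UMI minimum applied to all wells, these would count as past 2-fold too. With all wells, 10 log2 ratios moved past their interval and 59 did not, and Csf1, Csf2rb and Csf2rb2 moved most. Counting a cell as positive from 2 UMIs moved 32 differences in share past their interval and 40 not. Leaving out cells with S100a8 or Camp moved none. The causes were not tested. No paired analysis was possible because each group has 1 sample and the labels carry no replicate numbers, and the values within library pools given with the results compare cells of shared libraries. Depth limits every value that rests on 14 UMIs or fewer, such as those of Csf2, Csf3 and Csf2rb2 in Rad21-/- cells and Csf1 in untreated Rad21-/- cells.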
